A study of Mus musculus with 6 samples.

Results

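The 8 genes described here make or control the making of cholesterol: Srebf2, Insig1, Hmgcs1, Idi1, Fdps, Fdft1, Sqle and Lss. They were chosen by name for their place in the sterol pathway, and all 8 were matched among the 23284 genes listed per library. RNA was sequenced from EGFP-positive cells that a sorter had taken out of the calvaria (the roof of the skull) of CX3CR1-EGFP mice, where the reporter EGFP is made by cells with an active Cx3cr1 gene, mainly monocytes and macrophages. Every mouse had received lipopolysaccharide (LPS), a bacterial membrane component that provokes inflammation, into the periosteum of the calvaria. In one group it was given with 10 mg/kg CTLA4-Ig (abatacept), a soluble form of the receptor CTLA4 that blocks T cell costimulation. The control group received 10 mg/kg whole human IgG instead. Cells were sorted 5 days later, and each group has 3 libraries numbered as biological replicates, with no label for the animals behind each or for their strain background, age or sex. The p-values below therefore measure the spread between libraries. No group without LPS was analysed here, so all levels are those of LPS-treated tissue.

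Cholesterol is built from acetyl-CoA through mevalonate. Hmgcs1 acts at the entry to the pathway, Idi1 and Fdps make the isoprenoid farnesyl diphosphate, and Fdft1, Sqle and Lss turn it into squalene and then lanosterol, the first sterol. Srebf2 encodes SREBP2, a transcription factor held in the membrane of the endoplasmic reticulum. When sterols run low the escort protein SCAP carries it to the Golgi, where proteases release the active part, and INSIG proteins hold it back when sterols are plentiful. In macrophages and osteoclasts the same pathway supplies the isoprenoids that anchor small GTPases to membranes, and FDPS is the enzyme blocked by nitrogen-containing bisphosphonates, drugs used against bone loss.

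SREBP2 acts on short DNA elements before the start of its targets, together with the factors NF-Y and Sp1. RefSeq promoter windows on GRCm38.p6, the build the submitters' notes name as mm10, were matched for 5 of the 8 genes (Srebf2, Insig1, Hmgcs1, Idi1 and Lss); Fdps, Fdft1 and Sqle were not matched. In the 250 bases before the start, on both strands, the core of the sterol regulatory element TCACNCCAC was found in Hmgcs1 alone of these 5, and in 1.05% of the 32851 windows of all genes. CCAAT, the NF-Y box, was found in 5 of 5, against 33.8% of all windows, and GGGCGG, the Sp1 box, in 5 of 5, against 32.7%. Both boxes stood together in 5 of 5, against 11% of all windows. These counts use the RefSeq start. The Idi1 matches, at 69, 45 and 14 bases, lie after an earlier start in the GENCODE M21 annotation, and the part of its window before that start holds no match. The E-box CACGTG was found in Insig1 alone, against 6.02% of all windows. A shorter form of the sterol element, TCACCCCA, was added after the sequences had been seen. It stands in Hmgcs1, where it overlaps the core element, and in Srebf2, and in 1.34% of all windows. A match is a description of letters and not a site shown to be bound.

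The windows of Hmgcs1, with the core element, of Insig1, with the E-box, and of Srebf2 itself are shown up to the first start that RefSeq or GENCODE M21 annotates. All lie on the plus strand, and capitals mark matches on either strand (a CCAAT on the minus strand reads ATTGG, and a GGGCGG reads CCGCCC). The Hmgcs1 window is chr13:119690101-119690350, the Insig1 window chr5:28071162-28071362 and the Srebf2 window chr15:82147019-82147180.
Hmgcs1: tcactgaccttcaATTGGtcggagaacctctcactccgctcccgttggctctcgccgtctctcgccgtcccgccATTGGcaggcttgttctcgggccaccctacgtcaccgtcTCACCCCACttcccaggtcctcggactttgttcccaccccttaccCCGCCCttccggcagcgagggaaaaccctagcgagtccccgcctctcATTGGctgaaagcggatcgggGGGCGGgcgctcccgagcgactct
Insig1: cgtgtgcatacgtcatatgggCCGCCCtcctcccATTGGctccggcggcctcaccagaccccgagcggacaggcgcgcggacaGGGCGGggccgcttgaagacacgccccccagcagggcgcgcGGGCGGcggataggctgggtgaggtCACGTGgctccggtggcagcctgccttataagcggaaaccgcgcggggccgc
Srebf2: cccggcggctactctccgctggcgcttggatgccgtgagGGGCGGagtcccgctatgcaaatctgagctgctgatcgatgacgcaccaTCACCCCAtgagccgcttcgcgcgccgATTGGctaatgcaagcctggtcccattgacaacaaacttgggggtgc
Positions are counted from the RefSeq start, which for Insig1 and Srebf2 lies beyond the end of the sequence shown. In Hmgcs1 the sterol element begins 137 bases before that start and lies between an NF-Y box at 176 bases and an Sp1 box at 92. In Srebf2 the shorter element begins 162 bases before the RefSeq start at 82147269, with an NF-Y box at 135.

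**Figure D1:**
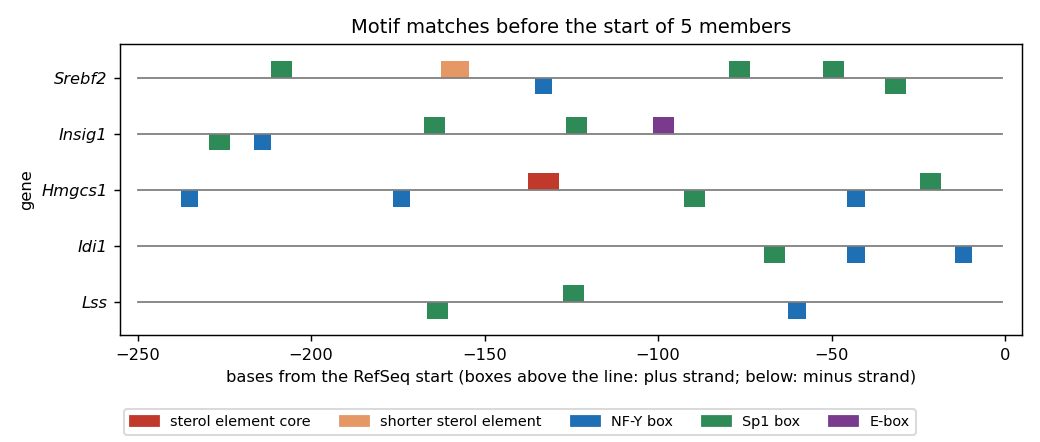
Position of motif matches in the 250 bases before the RefSeq start of 5 members (x axis, bases from the start; boxes above a line are on the plus strand and below it on the minus strand). Each of the 5 windows holds an NF-Y and an Sp1 box, and the sterol element core is in Hmgcs1, where it covers the shorter element.

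Each library was estimated to hold 8530000 to 10100000 fragments, and the lowest estimate was 0.845 of the highest. Genes above 0 in only 1 library were taken to hold 1 fragment there, and the median over 5 to 35 such genes per library was used. These estimates are rough. Their quartiles ran from 4410000 to 9010000 in control library 1 and from 5000000 to 10700000 in CTLA4-Ig library 3. At that depth the least covered member, Lss, rests on about 98.3 to 159 fragments per library and Srebf2 on about 1720 to 2110, which puts the counting error at up to 10.1% for Lss and 2.41% for Srebf2. The EGFP-positive cells carried transcripts of several myeloid types. The summed level of 13 neutrophil markers was 173170 to 239490 FPKM in the treated group and 133810 to 152820 in the controls, without overlap. Most of this sum was S100a8 and S100a9. By gene, 9 of the 13 had no overlap between the groups, against 12.2% of the 10865 genes tested below. The summed level of 13 monocyte and macrophage markers was 3374.6 to 3675.4 and 3670.2 to 3926.9 FPKM. That of 12 markers of cycling cells was 1507.3 to 1564.5 and 1491 to 1533.4. Of 10 osteoclast markers, Oscar was at 0 in all 6 libraries, Calcr, Dcstamp and Ocstamp stayed below 0.3 FPKM and Atp6v0d2 below 0.7. The other 5 were present, with Nfatc1 at 23.0 to 24.6 FPKM, Acp5 at 15.7 to 27.0, Itgb3 at 5.30 to 11.6, Ctsk at 1.41 to 4.98 and Tnfrsf11a at 1.502 to 1.98. One control library stood apart: 6 markers of the red cell lineage summed to 8.13 FPKM in control library 1 and to 73.4 to 121 in the other 5. In such bulk samples fewer cells of a type and less RNA per cell cannot be told apart.

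All 8 genes were expressed in every library. Levels are in FPKM, fragments scaled for transcript length and library size, so genes can be compared. Fdps had the highest level, 86.7 ± 20.3 FPKM (SD, 6 libraries), followed by Srebf2 at 42.6 ± 4.10. Then came Insig1 at 20.1 ± 4.41, Hmgcs1 at 19.4 ± 3.23, Idi1 at 17.8 ± 3.76, Fdft1 at 15.7 ± 2.196, Sqle at 12.6 ± 1.497 and Lss at 2.86 ± 0.651. The range of Fdps lay above that of Srebf2, and that of Srebf2 above that of Insig1, without overlap. From Insig1 to Sqle each range overlapped the next. Insig1 was above Hmgcs1 in 4 of 6 libraries, so these neighbours could not be ordered, while Hmgcs1 was above Idi1, Idi1 above Fdft1 and Fdft1 above Sqle in 6 of 6 libraries. Lss, the cyclase that closes the sterol rings, lay below all others without overlap.

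Whether CTLA4-Ig changed the sterol genes of the sorted cells is the question the design puts. None of the 8 passed the test, none had libraries that separated the groups, and their differences were small beside the spread of the controls. Values were compared as log2(FPKM + 1) with limma, with Benjamini-Hochberg adjustment over the 10865 genes whose mean reached 1 FPKM. Of all genes tested 0 (0%) had an adjusted p under 0.05 and 6.07% an unadjusted p under 0.05 (4.09% higher and 1.98% lower with CTLA4-Ig). Of the members 0 passed at either level. All 3 libraries of a group lay on one side of the other group's in 12.2% of all genes and in 0 of 8 members. The median log2 difference (CTLA4-Ig minus control IgG) was -0.04 over the members, of which 2 were positive and 6 negative, and -0.01 over all genes tested. The sign of the members' median followed single libraries, being 0.11 without control library 1, 0.05 without CTLA4-Ig library 1, 0.02 without control library 3 and -0.22 without control library 2.

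Among the regulators, Srebf2 (chromosome 15, 82147269 to 82205379, GRCm38) stood at 43.5, 47.2 and 41.2 FPKM in CTLA4-Ig libraries 1, 2 and 3 and at 44.8, 35.2 and 43.4 in control libraries 1, 2 and 3. Apart from the low control library 2, the 5 values lay close together and the groups overlapped. The log2 difference was 0.10 ± 0.10 (SE; 95% interval -0.14 to 0.35; limma, Benjamini-Hochberg adjusted p = 0.914). Insig1, which encodes a protein that retains SREBP2 in the endoplasmic reticulum and is itself an SREBP2 target (chromosome 5, 28071412 to 28078662), stood at 16.7, 17.7 and 22.1 FPKM with CTLA4-Ig and at 26.9, 14.97 and 22.1 with control IgG. Here the controls held both the highest and the lowest value. The log2 difference was -0.14 ± 0.21 (SE; 95% interval -0.63 to 0.36; limma, adjusted p = 0.939).

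An intron of Srebf2 holds the microRNA gene Mir33 (chr15:82198122-82198190), whose product represses the cholesterol exporter gene Abca1. Its mature form is shown because it shares the transcript of the regulator, with the seed, bases 2 to 8, in capitals.
mmu-miR-33-5p: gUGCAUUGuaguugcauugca
Mir33 was listed at 0 FPKM in all 6 libraries. These were mRNA libraries, which are not made to capture mature microRNAs, so the value says nothing of miR-33 in the cells. Abca1 had a mean of 2.47 ± 1.28 FPKM under CTLA4-Ig and of 2.15 ± 0.395 under IgG (SD, n = 3), with overlapping libraries.

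Of the enzymes of the mevalonate arm, Hmgcs1, the cytosolic HMG-CoA synthase (chromosome 13, 119690351 to 119708260), stood at 16.1, 21.4 and 18.2 FPKM with CTLA4-Ig and at 24.0, 16.0 and 20.9 with control IgG. Control library 1 was highest and control library 2 lowest, with all CTLA4-Ig values between them, and the log2 difference was -0.11 ± 0.16 (SE; 95% interval -0.50 to 0.27). Idi1, the isopentenyl diphosphate isomerase (chromosome 13, 8885606 to 8892396), stood at 14.7, 20.4 and 17.2 FPKM with CTLA4-Ig and at 22.4, 12.4 and 19.7 with control IgG. The same pair of controls enclosed the other 4 libraries, and the log2 difference was -0.03 ± 0.22 (SE; 95% interval -0.55 to 0.49). Its close relative Idi2, in the same region, was listed at 0 in all 6 libraries. Fdps, which makes farnesyl diphosphate (chromosome 3, 89093588 to 89101967), stood at 72.4, 93.1 and 85.8 FPKM with CTLA4-Ig and at 119, 58.9 and 91.1 with control IgG. This was the widest range of the 8 genes, with control library 1 at 2.02 times control library 2. The log2 difference was -0.05 ± 0.24 (SE; 95% interval -0.62 to 0.53).

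The squalene and lanosterol steps showed the same overlap. Fdft1, squalene synthase (chromosome 14, 63145150 to 63181687), stood at 13.9, 17.3 and 16.0 FPKM with CTLA4-Ig and at 17.1, 12.2 and 17.6 with control IgG, a log2 difference of 0.02 ± 0.15 (SE; 95% interval -0.34 to 0.37). Control library 2 was again the lowest, here below all CTLA4-Ig values and both other controls. Fdft1 overlaps Ctsb on the opposite strand, a cathepsin gene at 182 to 216 FPKM, and the use of strand in counting is not given in the sources used here. In control libraries 1, 2 and 3 Ctsb stood at 189, 199 and 216 FPKM, and its share in the Fdft1 values was not tested. Hmgcs1 and Lss also overlap antisense genes (Gm48342 and 4930483K19Rik), and Idi1 overlaps Gm48574 on the opposite strand. On its own strand Fdps overlaps Gm43738, annotated as protein-coding, and the small nuclear RNA gene Gm22935. Srebf2 overlaps Gm49502 on its own strand, besides Mir33. The share of these genes in the members' values was not tested. Sqle, squalene epoxidase (chromosome 15, 59315092 to 59331193), stood at 11.7, 13.4 and 12.3 FPKM with CTLA4-Ig and at 13.3, 10.4 and 14.7 with control IgG, a log2 difference of -0.02 ± 0.13 (SE; 95% interval -0.32 to 0.27). Its CTLA4-Ig values all lay inside the range of the controls. Lss, lanosterol synthase (chromosome 10, 76531565 to 76557139), stood at 2.35, 3.34 and 2.65 FPKM with CTLA4-Ig and at 3.92, 2.203 and 2.68 with control IgG, a log2 difference of -0.04 ± 0.18 (SE; 95% interval -0.48 to 0.40). The limma adjusted p of these 6 enzyme genes lay between 0.939 and 0.991. The intervals leave room for differences in either direction, widest for Fdps, so the test does not show that the groups were alike.

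**Figure D2:**
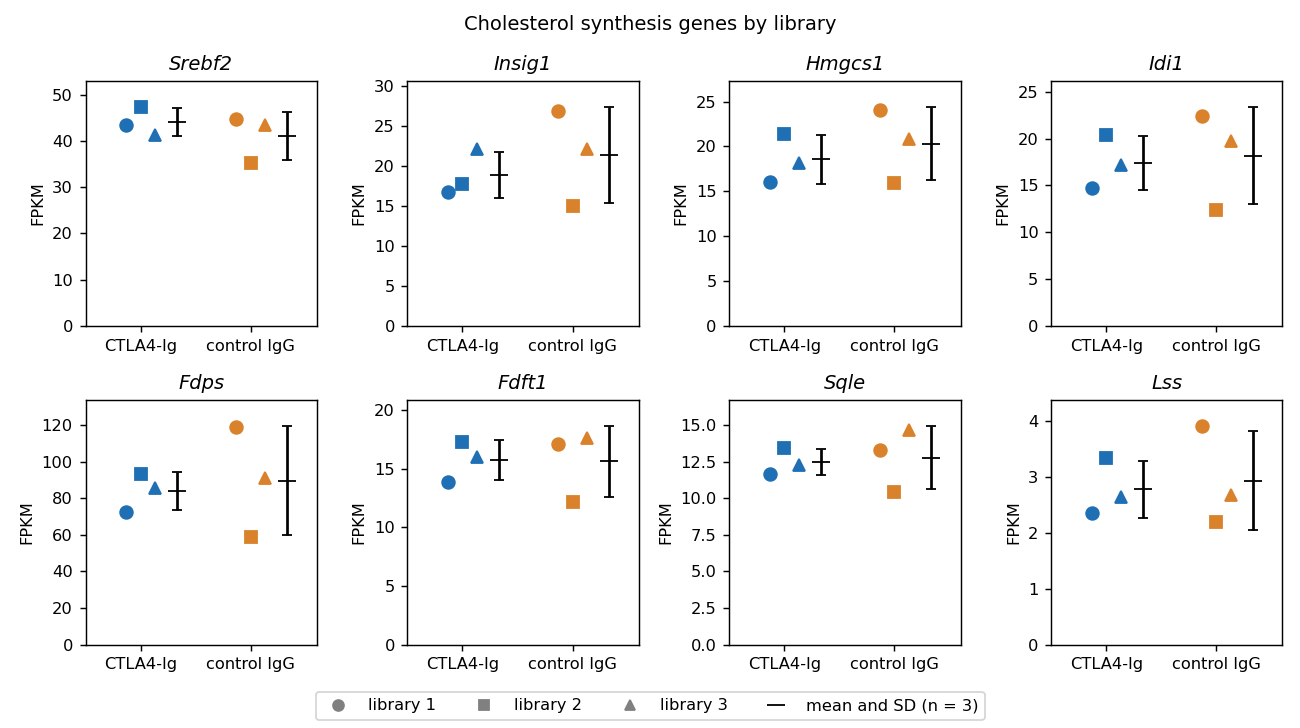
FPKM of each of the 8 genes (y axis, from 0) in the 3 CTLA4-Ig and 3 control IgG libraries (x axis); symbols give the library number, and the bar is the mean with its SD (n = 3). In all 8 panels control library 2 (square) is the lowest point, and the groups overlap.

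What most of the 8 genes shared was the order of the libraries. Control library 2 was the lowest of the 6 libraries in 8 of 8 members, against 12.6% of all genes tested. Control library 1 was the highest in 5 of 8 (Insig1, Hmgcs1, Idi1, Fdps and Lss), against 24.9%, and the highest value was in control library 3 for Fdft1 and Sqle and in CTLA4-Ig library 2 for Srebf2. Both held at once in 5 of 8, against 4.35%. From low to high the controls stood in the order 2, 3, 1 in 6 of 8 members, against 18.3% of all genes. The CTLA4-Ig libraries, which share no sample with the controls, had an order of their own: from low to high it was 1, 3, 2 in 6 of 8 members, against 15.5% of all genes. The exceptions differed: they were Fdft1 and Sqle in the controls and the regulators Srebf2 and Insig1 in the CTLA4-Ig libraries. CTLA4-Ig library 2 was above CTLA4-Ig library 1 in 8 of 8 members, with a median log2 difference of 0.33, against 49.1% and a median of -0.0029 over all genes. These orders were noticed in the values of the same libraries and are given as a description, with no test.

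Averaged over the 8 genes, the distance from each gene's mean on the log2 scale was 0.28 in control library 1, -0.34 in control library 2 and 0.11 in control library 3. It was -0.17, 0.12 and -0.0021 in CTLA4-Ig libraries 1, 2 and 3. The difference between control libraries 1 and 2 had a median of 0.59 on the log2 scale over the members, from 0.33 for Sqle to 1.0 for Fdps. Control library 1 was above control library 2 in 8 of 8 members, against 49% of all genes. Over all genes the median of that difference was -0.0042, with 90% of genes between -0.48 and 0.48 (5th and 95th percentiles). Control library 3 exceeded control library 2 by a median of 0.48 on the log2 scale over the members (8 of 8, which follows from control library 2 being the lowest), against 49.1% of all genes and a median of -0.0019. The members' SD within the controls had a median of 0.30 on the log2 scale, against 0.11 over all genes tested, and within CTLA4-Ig it was 0.19 against 0.10. Whether the spread of the 2 groups differs was not tested.

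The other 15 enzymes from acetyl-CoA to cholesterol were fitted in the same way. None passed the test or separated the groups, 9 had a positive and 6 a negative log2 difference, and the median difference between groups was 0.02. By library, control library 2 was lowest in 9 of 15, control library 1 highest in 9 of 15, and 11 of 15 stood in the order 1, 3, 2 in the CTLA4-Ig libraries. The difference between control libraries 1 and 2 had a median of 0.42 on the log2 scale. It was largest in Mvk, mevalonate kinase, at 1.08, which stood at 9.84 FPKM in control library 1 and 4.13 in control library 2. The sterol ketone reductase gene Hsd17b7 had 0.88, the phosphomevalonate kinase gene Pmvk 0.86 and the C4-methyl sterol oxidase gene Msmo1 0.70. Sc5d, a sterol desaturase gene, had 0.56 and Mvd, which makes isopentenyl diphosphate, 0.52. Not every enzyme took part: the difference was -0.08 for Lbr, the lamin B receptor with a sterol reductase domain, -0.02 for the thiolase gene Acat2 and 0.05 for the sterol isomerase gene Ebp. Lbr also had the highest level of the 15, at 140 to 157 FPKM.

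**Figure D3:**
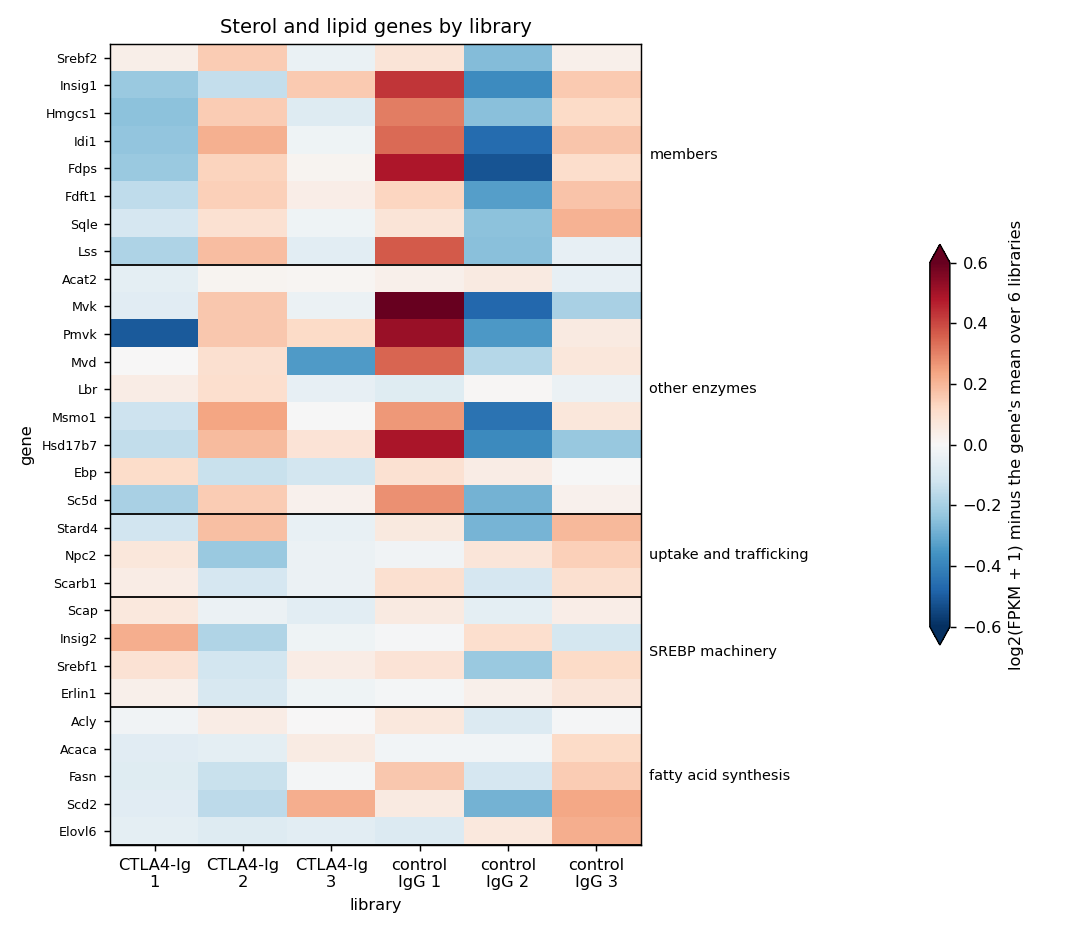
Distance of each gene (rows, genes of 5 lists that the text names) from its mean over 6 libraries (columns) on the log2(FPKM + 1) scale, red above and blue below. Members and most other enzymes are blue in control library 2 and mostly red in control library 1, while of the 4 genes of the SREBP machinery drawn Srebf1 is lowest in control library 2.

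**Figure D4:**
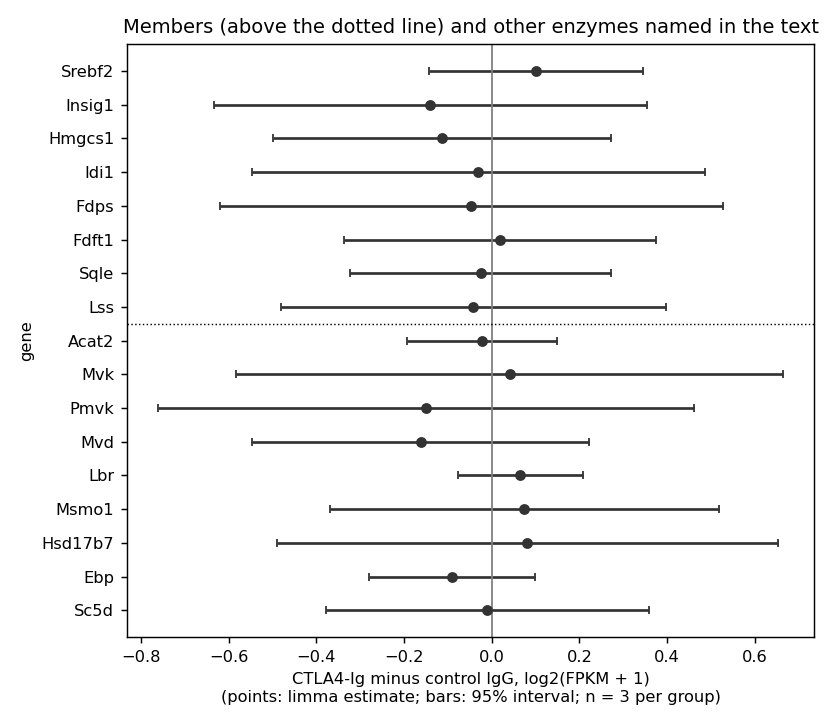
Difference between CTLA4-Ig and control IgG on the log2(FPKM + 1) scale (x axis) for the 8 members and the other enzymes the text names (y axis), with the limma estimate as a point and its 95% interval as a bar (n = 3 per group). Every interval includes 0.

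The machinery that controls SREBP2 showed little of this order of the libraries. Of 11 genes (the escort, proteases, retention and degradation factors), control library 2 was lowest in 1, Srebf1, and the median difference between control libraries 1 and 2 was -0.04 on the log2 scale. Scap, the escort gene, ranged from 15.2 to 16.8 FPKM over the 6 libraries and Insig2, the relative of Insig1, from 6.61 to 9.03. Between the groups 0 of 11 passed, and 1 had an unadjusted p under 0.05 in limma, against 6.07% of all genes tested. In 2 of 11 the groups did not overlap, against 12.2% of all genes. Erlin1, a protein of the endoplasmic reticulum membrane, had a log2 difference of -0.06, and Srebf1, the relative of Srebf2 that favours fatty acid genes, 0.02.

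Genes of cholesterol uptake and trafficking were mixed. Stard4, a sterol transfer protein gene, stood at 11.03, 13.8 and 11.6 FPKM with CTLA4-Ig and at 12.6, 9.74 and 13.9 with control IgG. Control library 2 was again the lowest of the 6, and the CTLA4-Ig libraries stood in the order 1, 3, 2. The lysosomal cholesterol binder gene Npc2 was lowest in another library, at 142 FPKM in CTLA4-Ig library 2 and 163 to 184 in the other 5. Over the 9 uptake and trafficking genes tested the median difference between control libraries 1 and 2 was -0.01, and 0 passed between the groups. Of the 9, 1 had an unadjusted p under 0.05 in limma (6.07% of all genes), and in 1 the groups did not overlap (12.2% of all genes). Scarb1, which takes up HDL cholesterol, had a log2 difference of -0.06.

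Genes of cholesterol efflux and storage were fitted next, of which some, such as Abca1 and Abcg1, are driven by the sterol-sensing LXR receptors. Of 9 tested, control library 2 was lowest in 2, and 0 passed between the groups. Of the 9, 1 had an unadjusted p under 0.05 in limma (6.07% of all genes), and in 1 the groups did not overlap (12.2% of all genes). Abcg1, an exporter gene, stood at 9.44 ± 3.08 and 8.89 ± 1.44 FPKM (SD, n = 3), and Nr1h3, which encodes LXRα, at 1.32 ± 0.225 and 1.43 ± 0.411. Apoe, a carrier of cholesterol, stood at 349, 319 and 520 FPKM with CTLA4-Ig and at 691, 345 and 351 with control IgG, so that control library 1 was far above the rest but control library 2 was not low. Soat1, which esterifies cholesterol for storage, had a log2 difference of -0.21 ± 0.09 (SE; limma, adjusted p = 0.809), Nr1h2 0.13 and Nceh1 0.11. Ch25h, which makes 25-hydroxycholesterol, was listed at 0 in 4 of 6 libraries and at no more than 0.264 FPKM in the others.

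The isoprenoid branch uses the product of Fdps. Of its 15 genes, control library 2 was lowest in 0, and the median difference between control libraries 1 and 2 was -0.01 on the log2 scale. Ggps1, which makes geranylgeranyl diphosphate, ranged from 7.22 to 9.46 FPKM. Between the groups 0 of 15 passed, and 3 had an unadjusted p under 0.05, against 6.07% of all genes tested. In 3 of 15 the groups did not overlap, against 12.2% of all genes. Zmpste24, a protease that trims prenylated proteins, stood at 71.6, 101 and 73.4 FPKM with CTLA4-Ig and at 55.2, 65.8 and 55.6 with control IgG, without overlap (log2 difference 0.46 ± 0.14 (SE); limma, adjusted p = 0.720). Pggt1b and Rabggtb, subunits of the geranylgeranyl transferases, had -0.20 ± 0.07 and -0.18 ± 0.07 (SE; adjusted p = 0.751 and 0.815).

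Fatty acid synthesis is the neighbouring pathway under SREBP1. Of 10 genes tested control library 2 was lowest in 2 (Acly and Scd2), and the median difference between control libraries 1 and 2 was 0.16 on the log2 scale. The CTLA4-Ig libraries stood in the order 1, 3, 2 in 1 of 10, against 6 of 8 members. Fasn, the fatty acid synthase gene, stood at 12.0 ± 0.540 and 13.4 ± 1.44 FPKM (SD, n = 3; log2 difference -0.14 ± 0.09 (SE)), Elovl6 had -0.13, Acaca -0.05 and Scd2 -0.0027, and 0 of 10 passed.

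**Figure D5:**
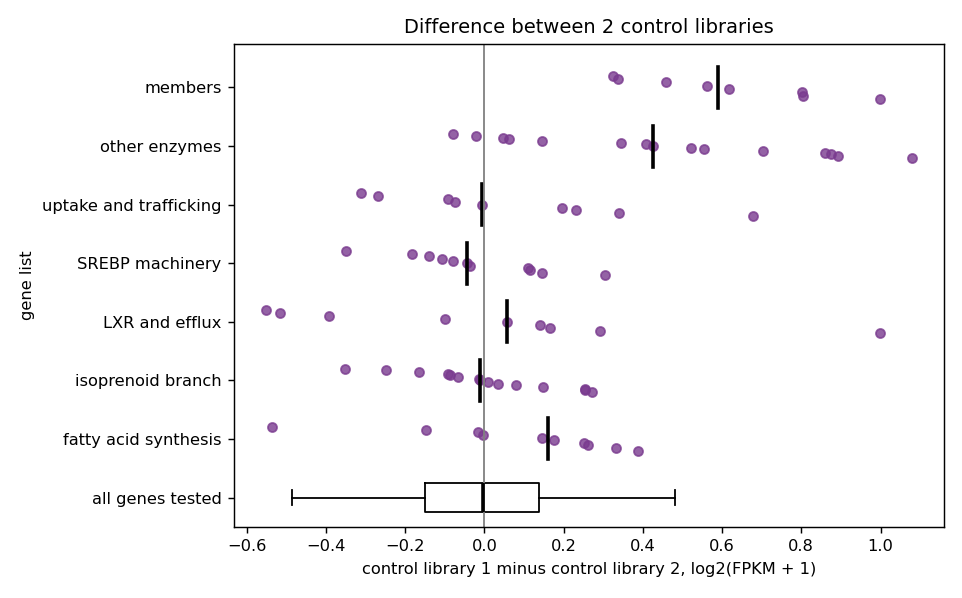
Difference between control libraries 1 and 2 on the log2(FPKM + 1) scale (x axis) for the tested genes of 7 lists (points, with the list's median as a bar) and for all 10865 genes (box, quartiles; whiskers, 5th to 95th percentile). The 8 members lie between 0.33 and 1.0, and the median of all genes is -0.0042.

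Each of the 8459 genes whose mean reached 5 FPKM was compared with the mean of the members' centred log2 values over the 6 libraries by Pearson's r, as a description with no test; each member was compared with the other 7. With so many genes and 6 libraries, high values of r arise by selection. Of the 25 genes with the highest r, 3 were members (Idi1, Fdps and Hmgcs1) and 6 were other genes of the sterol and lipid lists, among them Sc5d, Msmo1 and Acly. The 5 highest outside the lists were Uxt (r = 0.993), the sialyltransferase gene St3gal4 (0.987), Tcf25 (0.974), Snrnp25 (0.971) and Fam108a (0.967). The log2 difference between control libraries 1 and 2 was 0.51 for Snrnp25, 0.33 for Uxt, 0.28 for St3gal4, 0.25 for Fam108a and 0.15 for Tcf25.

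Levels of other cell types moved with the libraries beside this pattern. Control library 1 was set against control library 2 by the summed FPKM of each marker list. The sum of 6 markers of early neutrophil precursors was 1.27 times as high in control library 1. That of 13 neutrophil markers was 0.883 times as high. This sum is mostly S100a8 and S100a9, and by gene control library 1 was above control library 2 in 5 of 13, against 49% of all genes tested. The sums of 13 monocyte and macrophage markers and of 12 markers of cycling cells were 1.05 and 1.004 times as high. The sum of 9 stromal and bone markers was 0.657 times, that of 8 B lineage markers 0.646 times and that of 6 red cell markers 0.0669 times as high in control library 1. The monocyte and macrophage sum is mostly Ly6c2, at 2158 to 2304 FPKM in the treated libraries and 2167 to 2335 in the controls, and does not show its smaller members. Of the 13, control library 2 was lowest in 5 (Cd14, Mrc1, C1qa, C1qb and C1qc), against 12.6% of all genes tested. Control library 3 was above control library 2 in 11 of the 13, against 49.1% of all genes, with a median log2 difference of 0.44. The complement genes C1qa, C1qb and C1qc, markers of macrophages, were 3.21, 2.77 and 2.89 times as high in control library 1 as in control library 2, and the LPS co-receptor gene Cd14 1.87 times. By gene control library 1 was above control library 2 in 8 of the 13, against 49% of all genes tested. Among the others Cx3cr1, whose reporter was used for sorting, stood at 12.3 FPKM in control library 1 and 23.8 in control library 2. In the CTLA4-Ig libraries 0 of these 13 stood in the order 1, 3, 2, and the C1q genes were highest in CTLA4-Ig library 3. Of the 13 neutrophil markers, 8 stood in the order 1, 3, 2 in the CTLA4-Ig libraries, against 15.5% of all genes tested. CTLA4-Ig library 2 was above CTLA4-Ig library 1 in 12 of the 13, against 49.1% of all genes, with a median log2 difference of 0.42. Control library 2 was lowest in 0 of the 13 neutrophil markers. The part of these cells in the order of the sterol genes was not tested. Osteoclast markers summed to 55.5 to 66.9 FPKM over the 6 libraries, dendritic cell markers to 55.7 to 73.9 and T and NK cell markers to 82.6 to 120. The dendritic sum does not show its single genes. By gene control library 1 was above control library 2 in 1 of 6 tested, Flt3, at 46.6 and 19.2 FPKM. The median log2 difference between these 2 libraries over the 6 genes was -0.75. The T and NK cell sum is mostly Nkg7, at 72.5 to 108 FPKM. The T cell genes Cd3e, Cd4 and Cd8a stood at 0.26 to 0.90, 1.13 to 2.55 and 1.11 to 2.79 FPKM. Between the groups, neutrophil markers had a positive log2 difference in 13 of 13, against 5182 of the 10865 genes tested. Their median was 0.54 with 0 past the adjusted threshold, while the members' median was -0.04.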

How the data were processed

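The authors deposited FPKM for each gene name in each library. The tools named, per the submitters' processing notes, are Cuffnorm 2.2.1, SAMtools 0.1.19, Bowtie2 2.2.3 and TopHat2 2.0.13, and the build is mm10. For annotation, settings and strand, the record is not given in the sources used here. Per the labels' protocols, libraries came from a stranded mRNA kit. FPKM holds no read counts, so depth was estimated from the lowest values of single-transcript genes of at least 2000 bases (GENCODE M21), and no count test was run.

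Genes whose mean reached 1 FPKM were tested in R 4.3.3 by limma 3.58.1 (trended eBayes) on log2(FPKM + 1), with Benjamini-Hochberg adjustment over all genes and a threshold of 0.05. Fold changes on this scale understate those of low genes. Group came from the treatment label. Of 177 list entries 175 were matched, 4 through an older symbol in RefSeq (GRCm38.p6), which also gave coordinates and promoters. Counts and medians cover whole lists, of which some genes are not reported here. The members and lists were chosen with earlier results of these data known. Named were the members, other enzymes, some key regulators and transporters, per list the 3 genes with the smallest unadjusted p, and the 5 genes most like the members. Mir33, Ctsb, Idi2, Stard4 and the library orders were chosen after values were seen. Simulated data were used to check the test. Python 3.11.15, pandas 2.3.3, numpy 2.4.6 and matplotlib 3.10.9 were used for depth, motifs and figures. Alternatives were other pseudocounts, filters, scalings, priors and weights, a block for replicate number, and fits without each library in turn.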

Additional observations from a re-analysis of the deposited data

How the results depend on the processing

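Over 16 alternatives, 127 values for single members lay between -0.36 and 0.18 on the log2 scale (CTLA4-Ig minus control IgG), 0 had an adjusted p under 0.05 in limma (smallest 0.682), and 20 changed sign. With array weights, which weigh libraries by their fit, the difference was 0.0160 for Insig1, 0.13 for Idi1, 0.16 for Fdps, 0.0377 for Sqle and 0.0870 for Lss, and their median over the 8 members was 0.10; the cause was not tested. Leaving out 1 library at a time gave ranges of -0.00429 to 0.16 for Srebf2, -0.36 to 0.0397 for Insig1, -0.27 to 0.013 for Hmgcs1, -0.27 to 0.13 for Idi1, -0.32 to 0.18 for Fdps, -0.14 to 0.11 for Fdft1, -0.16 to 0.0735 for Sqle and -0.18 to 0.13 for Lss. For the members' median the range was -0.22 to 0.11. Leaving out 1 library also gave 0 to 6 genes with an adjusted p under 0.05 (6 without CTLA4-Ig library 3), none a member, and 347 (without CTLA4-Ig library 2) to 868 (without control library 1) with an unadjusted p under 0.05, against 659. The median difference between control libraries 1 and 2 over the members, 0.59, was 0.70 and 0.64 with pseudocounts of 0.1 and 0.5, 0.59 after rescaling by the median of ratios and 0.60 after quantile normalization. With a mean of at least 5 FPKM Lss was not tested, so the members' medians were not computed. The deviations of same-numbered libraries from their group means correlated at -0.154, -0.0942 and -0.0235 across genes. Those of differently numbered libraries correlated at -0.0389 to 0.132, highest for CTLA4-Ig library 1 with control library 2. Deviations within a group are tied to each other through its mean, so these values cannot tell whether libraries were handled in pairs. With the replicate number as a block, 0 genes had an adjusted p under 0.05 and 619 an unadjusted one. Depth limits Lss most, and its counting error is up to 10.1% by the rough depth estimates.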
